A study of Mus musculus with 6 samples.

Results

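The microRNAs (miRNAs) mmu-miR-26a, mmu-miR-26b, mmu-miR-101a, mmu-miR-101b and mmu-miR-101c, written below without the species prefix, were followed in the mouse neuroblastoma line N2A after an siRNA against the circular RNA circCpsf6. Every mouse-named entry whose name, without its arm, copy number and variant suffix, was one of these miRNAs was taken, which gave 9 of 1080 entries, 4 of miR-26 and 5 of miR-101. Of the 1080, 754 were mouse-named. Small RNA was sequenced from 6 libraries. The 3 si-circCpsf6 libraries came from N2A cells given 100 nM of an siRNA directed at circCpsf6 with a lipid reagent, and the 3 si-NC libraries from N2A cells given 100 nM of a control siRNA in the same way. The comparison asks whether these miRNAs differ in level when circCpsf6 is targeted.

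miRNAs guide Argonaute proteins to messenger RNAs through pairing of their seed, bases 2 to 8 counted from the 5′ end, and lower the stability and translation of the targets. miR-26 and miR-101 are best known as repressors of Ezh2, the methyltransferase of Polycomb repressive complex PRC2, which places the repressive methyl marks on lysine 27 of histone H3. That relation was described for miR-101 in human prostate cancer cells and for miR-26a in mouse muscle precursors. In the nervous system Ezh2 holds neuronal genes silent in progenitors. miR-26 is encoded inside the Ctdsp phosphatase genes, whose products act with the REST repressor of neuronal genes. Ezh2 itself was not measured in these small RNA libraries, and the level of circCpsf6 is not analysed here.

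The sequences are shown first because the seed decides which targets a miRNA can pair with, and here the names of the entries put the 5′ end of the 2 abundant miR-101 entries at different bases. All 9 entries were matched by name, without the suffix, to a mature sequence in RefSeq (GRCm38.p6), and sequences of reads were not compared. The RefSeq sequences of the leading entries and miR-101c are given 5′ to 3′ with the seed in capitals.
miR-26a-5p: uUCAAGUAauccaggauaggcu
miR-26b-5p: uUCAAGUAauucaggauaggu
miR-101a-3p: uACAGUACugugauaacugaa
miR-101b-3p: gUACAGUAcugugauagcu
miR-101c: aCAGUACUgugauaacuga

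The miR-26 5p arms share one seed. Counted from the 5′ end of miR-26a-5p, with its base first and that of miR-26b-5p last, they differ by C11U and C21U over 21 bases compared. miR-101a-3p and miR-101b-3p, aligned from base 1 of miR-101a-3p and base 2 of miR-101b-3p, differ by A16G over 18 bases compared, with the position counted in miR-101a-3p. The sequence of miR-101c lies whole within miR-101a-3p, at its positions 2 to 20, so reads of those bases fit either name and the value of miR-101c is uncertain.

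The entry names carry suffixes that are read here as bases lost or gained at the left (L, 5′) and right (R, 3′) end of the annotated form. Under that reading, with added bases taken from the RefSeq hairpin, the abundant listed forms were the following, shown for the place of their seed.
miR-101b-3p, 1 base shorter at the left and 4 longer at the right: uACAGUACugugauagcugaag
miR-101a-3p, 1 base longer at the left and 1 shorter at the right: gUACAGUAcugugauaacuga
miR-26b-5p, 1 base longer at the right: uUCAAGUAauucaggauagguu
The listed form of miR-101b-3p thus has the seed that RefSeq gives for miR-101a-3p, and the listed form of miR-101a-3p has the seed that RefSeq gives for miR-101b-3p. The miRNA reference release behind the names is not given in the sources used here, and whether a listed value covers other end variants is not given either. Among all mature mouse miRNAs in the RefSeq table, no other name had the miR-26 or the miR-101a-3p seed in full. miR-144-3p shares its first 6 seed bases with miR-101a-3p, and it was listed at 0, 0 and 6 in si-circCpsf6 and at 3, 0 and 0 in si-NC.

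The complements of these seeds were searched on the sense strand in the longest 3′ untranslated region (402 bases) of an Ezh2 transcript in GENCODE (GRCm38, mouse chromosome 6). The match to the miR-26 seed, TACTTGA, occurred at 1 place, bases 248 to 254 after the stop codon. The match to the miR-101a-3p seed, GTACTGT, occurred at 2 places, bases 59 to 65 and 114 to 120. The sites are shown with 12 bases before and 5 after the match, which is in capitals.
miR-26 match: ttgaataaagaaTACTTGAacttg
miR-101 first match: caggaaccttgaGTACTGTgggca
miR-101 second match: tgaatttgcaaaGTACTGTaacag
The match to the seed of the listed miR-101a-3p form, TACTGTA, overlaps GTACTGT by 6 bases and occurred at 1 of these places, the second. Among 15295 windows made of the first 402 bases of the longest 3′ untranslated region of each gene, 2.85% held TACTTGA, 2.71% held GTACTGT, 3.33% held TACTGTA and 0.0915% held both TACTTGA and GTACTGT. A match of letters describes the window and does not show that the site is used.

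The hairpins lie at separate places in the genome (RefSeq GRCm38.p6 positions set against GENCODE genes of GRCm38, not the build of the authors' processing). The same miR-26a 5p arm comes from a hairpin on chromosome 9 (119031796 to 119031885, in an intron of Ctdspl) and one on chromosome 10 (126995530 to 126995613, overlapping an annotated exon of Ctdsp2). The miR-26b hairpin, at 74394310 to 74394394 of chromosome 1, is intronic in Ctdsp1. For miR-101a the hairpin is at 101346945 to 101347027 of chromosome 4 and overlaps an exon of E130102H24Rik, a long intergenic noncoding RNA. For miR-101b it is at 29135279 to 29135375 of chromosome 19, intronic in Rcl1, a gene of ribosomal RNA processing. All of these are on the strand of their host gene. The miR-101c sequence is placed on chromosome 9 at 3038680 to 3038698 with no gene overlapping it in GENCODE.

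Each value is the authors' normalized read number, a whole number in every case, and with the sequencing depth unknown no interval for counting error is given. After entries with identical values were merged, libraries summed to between 2516481 and 3219618, and every percent of a library below is of this sum. The merged entries at 1 or more numbered 793, 849 and 717 in si-circCpsf6 and 840, 815 and 558 in si-NC, which sets si-NC replicate 3 apart. All 7 neuronal and neuroendocrine marker miRNAs were above 0 in every library, summing to between 240413 and 387500 in si-circCpsf6 and between 146554 and 261584 in si-NC. Most of this sum was miR-7a-5p. Far lower over all libraries were miR-9-5p (83 to 180), miR-375-3p (96 to 313) and miR-124-3p (183 to 711). Of 8 markers of liver, blood and muscle, 5 had an entry, and these summed to between 49 and 76 in si-circCpsf6 and between 49 and 154 in si-NC, mostly from the muscle miRNAs miR-1a-3p and miR-133a-3p. miR-122-5p of hepatocytes was at 0 in all libraries but 1. Their part in the results was not tested. The labels do not say whether replicates were separate cultures, and the p-values rest on the variation among the libraries sequenced, which could be technical alone. As bulk values, they cannot separate fewer cells carrying a miRNA from less of it per cell.

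miR-26a-5p and miR-101b-3p were the most abundant of the 9 entries, close to each other, and they ranked between 19 and 36 among 740 mouse-named entries in each library. miR-26a-5p held 0.872% to 1.30% of the summed values of a library, and miR-101b-3p held 0.845% to 1.37%. Their order differed between the groups: miR-101b-3p lay above miR-26a-5p in each si-circCpsf6 library and below it in each si-NC library. In si-NC replicate 3 they were close, at 28797 for miR-101b-3p and 30875 for miR-26a-5p. The pair sets a member that was higher beside a member that was lower, and neither passed the test given below. How often other pairs of entries change order was not counted. miR-26b-5p came next, ranking 36 to 60, and miR-101a-3p after it, ranking 65 to 104. The ranges of these steps did not overlap, miR-26b-5p running from 10411 to 20985 and miR-101a-3p from 3633 to 7928 over all libraries. The opposite arms and miR-101c stood far lower, at 153 or less in every library. The mature forms are 19 to 23 bases long, and no length correction was made. Whether the libraries recovered each miRNA equally well was not tested. Comparisons between different miRNAs here and below are therefore of listed read numbers, not of amounts in the cell.

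**Figure D1:**
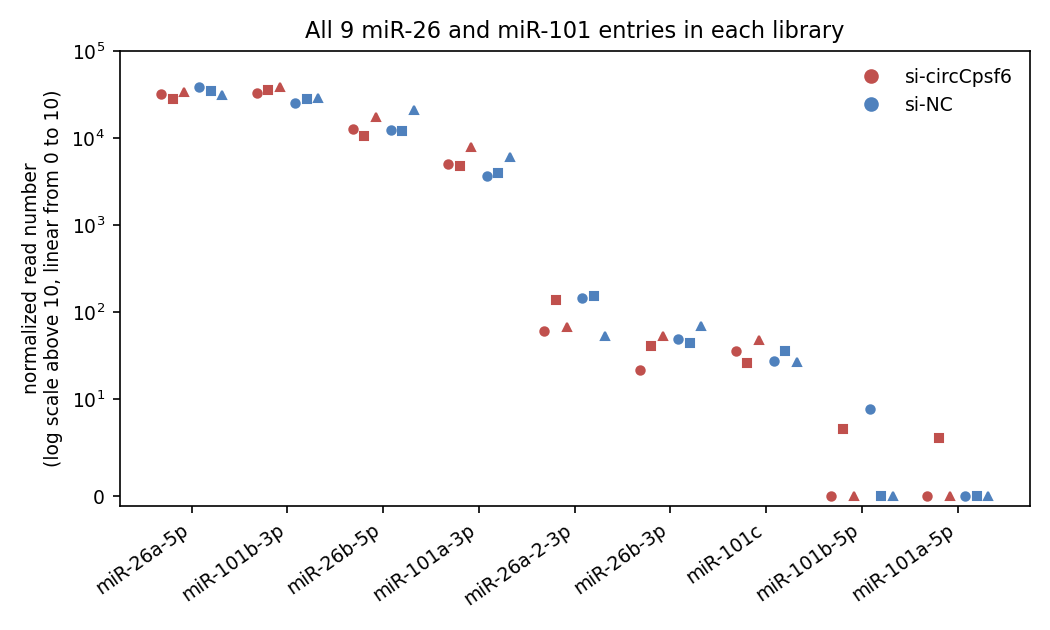
Normalized read number of each of the 9 miR-26 and miR-101 entries in each library (vertical axis logarithmic above 10 and linear below), with si-circCpsf6 in red left of si-NC in blue and circles, squares and triangles for replicates 1, 2 and 3. The 4 leading entries lie at 3633 or more in every library and the other 5 at 153 or below, with miR-101b-5p and miR-101a-5p at 0 in most libraries.

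No entry of either family passed the test between the groups. The test was limma on log2(value + 1) over 916 entries with Benjamini-Hochberg adjustment, and 0 entries (0.0%) had an adjusted p under 0.05, while 57 (6.22%) had an unadjusted p under 0.05, 30 of them higher in si-circCpsf6 (3.28%). All 9 members had a mean of 1 or more and were tested. Of these, 0 had an unadjusted p under 0.05, 4 had a positive and 5 a negative log2 change, and the median was -0.11, beside a median of 0.086 over all tested entries. The 4 miR-26 entries all had negative estimates, that of miR-26b-5p turning positive in some alternatives given below. Of the miR-101 entries, all but miR-101b-5p had positive estimates. That of miR-101a-5p rests on a value of 6 in a single library, and the value of miR-101c is uncertain as said above. Over all 916 tested entries, 510 had positive and 406 negative log2 changes. The smallest adjusted p of any member under any alternative run was 0.184.

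**Figure D2:**
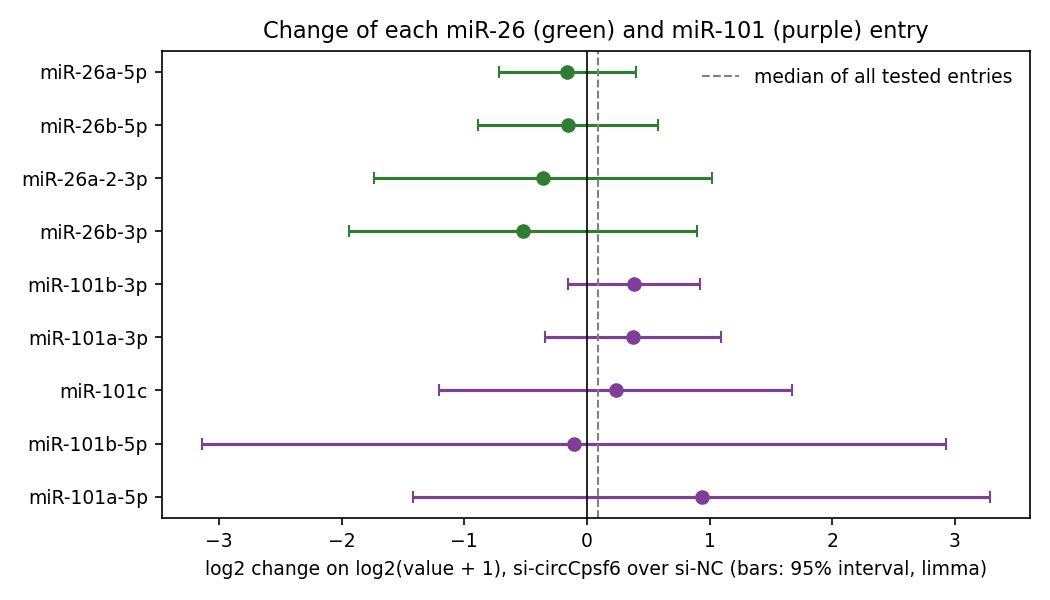
Log2 change of each miR-26 entry (green) and miR-101 entry (purple) in si-circCpsf6 over si-NC on the log2(value + 1) scale, with the 95% interval from limma as bars and the median of all 916 tested entries as a dashed line. Every interval includes 0, and the intervals of the entries near 0 reads, such as miR-101b-5p, span several log2 units.

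miR-101b-3p, the more abundant miR-101 and the one whose listed form has the seed of the Ezh2 match GTACTGT, was listed at 32910, 35648 and 38607 in si-circCpsf6, against 25264, 27927 and 28797 in si-NC. Every si-circCpsf6 library lay above every si-NC library, the only member for which the groups did not overlap. Groups lay apart in this direction for 62 of the 916 tested entries (6.77%), and for 13 of the 201 with a mean of 1000 or more (6.47%), so such a separation is not rare in the table. The means were 35722 ± 2849 in si-circCpsf6 and 27329 ± 1841 in si-NC (SD, n = 3 each), a ratio of 1.31.

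The log2 change of miR-101b-3p was 0.39 (SE 0.24, 95% interval -0.15 to 0.93), with an adjusted p of 0.735 by limma over all entries and an unadjusted p of 0.139. limma draws each entry's spread towards that of entries of like abundance, and the spread of miR-101b-3p alone would give an SE of 0.088. A two-sided exact permutation test on the deposited values gave p = 0.1, the smallest that 3 against 3 libraries allow. In the authors' deposited table its p was 0.0178 without adjustment, where 40 of 1080 entries (3.7%) were under 0.05. The separation depended on the scaling. As a percent of each library's sum, miR-101b-3p was 1.16, 1.11 and 1.37 in si-circCpsf6, against 0.845, 0.971 and 1.14 in si-NC, and si-NC replicate 3 then exceeded 1 si-circCpsf6 library. Rescaled by the median ratio of each library to the geometric mean of entries above 0 in all libraries, it was 32328, 35464 and 38289 in si-circCpsf6, against 24761, 27827 and 29602 in si-NC, and the groups stayed apart.

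miR-101a-3p, whose sequence differs from miR-101b-3p by A16G as counted above, was listed at 5015, 4777 and 7928 in si-circCpsf6, against 3633, 4010 and 5973 in si-NC. In both groups the replicate numbered 3 was the highest, and si-NC replicate 3 lay above the lower 2 of the si-circCpsf6 libraries. The means were 5907 ± 1755 in si-circCpsf6 and 4539 ± 1256 in si-NC (SD, n = 3 each), a ratio of 1.30 that is close to that of miR-101b-3p. On the log2 scale the difference was about as large as the spread between replicates (log2 change 0.38, within-group SD 0.39). Its SE was 0.31 and its limma adjusted p 0.884. Without si-circCpsf6 replicate 3 the log2 change was 0.14, and without si-NC replicate 3 it was 0.59. The listed value of miR-101b-3p over that of miR-101a-3p was 6.56, 7.46 and 4.87 in si-circCpsf6, against 6.95, 6.96 and 4.82 in si-NC. This ratio was lowest in replicate 3 of each group.

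**Figure D3:**
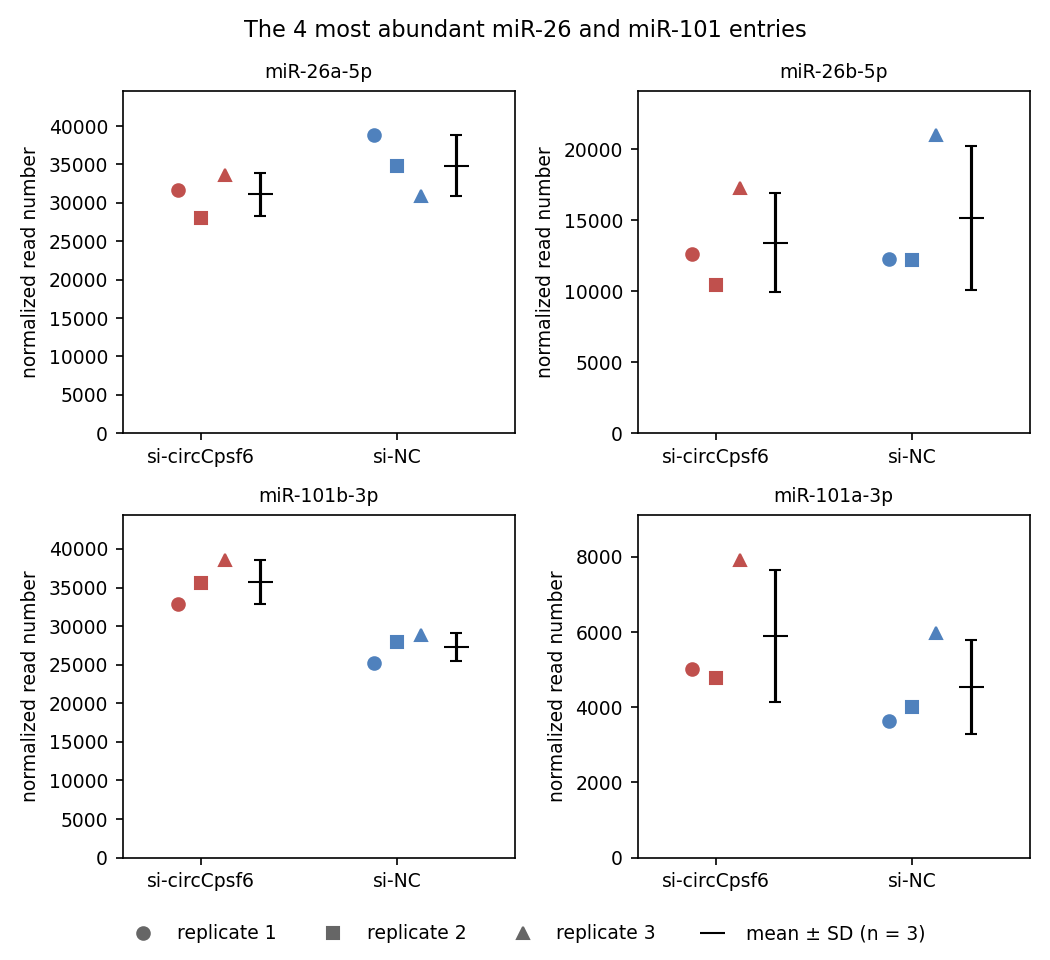
Normalized read number (vertical axis, from 0) of miR-26a-5p, miR-26b-5p, miR-101b-3p and miR-101a-3p in the 3 si-circCpsf6 (red) and 3 si-NC (blue) libraries, with mean ± SD as black bars. miR-101b-3p is apart between the groups, at 32910 or more in si-circCpsf6 and 28797 or less in si-NC, while the groups of the other 3 entries overlap and replicate 3 stands high for miR-26b-5p and miR-101a-3p.

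miR-26a-5p, the most abundant miR-26 and a broadly expressed miRNA, was listed at 31666, 28068 and 33604 in si-circCpsf6, against 38817, 34758 and 30875 in si-NC. The groups overlapped, with si-NC replicate 3 below 2 of the si-circCpsf6 libraries. The means were 31113 ± 2809 in si-circCpsf6 and 34817 ± 3971 in si-NC (SD, n = 3 each), and the log2 change was -0.16 (SE 0.24, 95% interval -0.72 to 0.40, limma adjusted p = 0.952). As a percent of the library sum the groups did not overlap, at 1.12, 0.872 and 1.19 in si-circCpsf6, against 1.30, 1.21 and 1.23 in si-NC. On that scale groups lay apart in the lower direction for 59 of the 916 tested entries (6.44%). Rescaled by the median ratio, the values were 31106, 27923 and 33327 in si-circCpsf6, against 38045, 34633 and 31738 in si-NC, and the groups overlapped. This entry varied little between replicates, with a within-group SD of 0.15 on the log2 scale, beside a median of 0.42 over 201 entries with a mean of 1000 or more. The same SD was 0.11 for miR-101b-3p, 0.41 for miR-26b-5p and 0.39 for miR-101a-3p.

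miR-26b-5p, which carries the same seed from a separate hairpin, was listed at 12599, 10411 and 17253 in si-circCpsf6, against 12287, 12168 and 20985 in si-NC. Replicate 3 was the highest library in each group, and the other 4 libraries lay between 10411 and 12599. The means were 13421 ± 3494 in si-circCpsf6 and 15147 ± 5057 in si-NC (SD, n = 3 each). The log2 change of -0.16 (SE 0.32, limma adjusted p = 0.977) lay well within the spread, and its sign turned without si-NC replicate 3 (0.10) and without si-circCpsf6 replicate 2 (0.010). The listed value of miR-26a-5p over that of miR-26b-5p was 2.51, 2.70 and 1.95 in si-circCpsf6, against 3.16, 2.86 and 1.47 in si-NC. This ratio was again lowest in replicate 3 of each group.

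Summed over all entries of a family, miR-101 and miR-26 had opposite differences, neither of which was given a test because the members were chosen together. Summed miR-101 was 37961, 40464 and 46583 in si-circCpsf6, against 28934, 31973 and 34797 in si-NC, with no overlap. As a percent of each library's sum it was 1.34, 1.26 and 1.65 in si-circCpsf6, against 0.968, 1.11 and 1.38 in si-NC, with overlap, while after the median-ratio rescaling the groups did not overlap. miR-101b-3p makes up most of this sum, so it repeats that entry's pattern. Summed miR-26 was 44348, 38658 and 50979 in si-circCpsf6, against 51300, 47123 and 51983 in si-NC, with overlap.

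Within a library, where the scaling of the values cancels, there were 0.856, 1.05 and 0.914 miR-101 reads per miR-26 read in si-circCpsf6, against 0.564, 0.679 and 0.669 in si-NC. The means were 0.939 ± 0.0978 in si-circCpsf6 and 0.637 ± 0.0636 in si-NC (SD, n = 3 each), a ratio of 1.47, or 1.51 without si-NC replicate 3. It sets the family that was higher in these data over the one that was lower, and mostly restates miR-101b-3p over miR-26a-5p. Its separation was not tested, and how often ratios of other entries lie apart was not counted. Both families together came to 82309, 79122 and 97562 in si-circCpsf6, against 80234, 79096 and 86780 in si-NC, a ratio of means of 1.05 with overlapping groups. Together they held 2.94 ± 0.498% of the summed values in si-circCpsf6 and 2.96 ± 0.424% in si-NC (SD, n = 3 each).

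**Figure D4:**
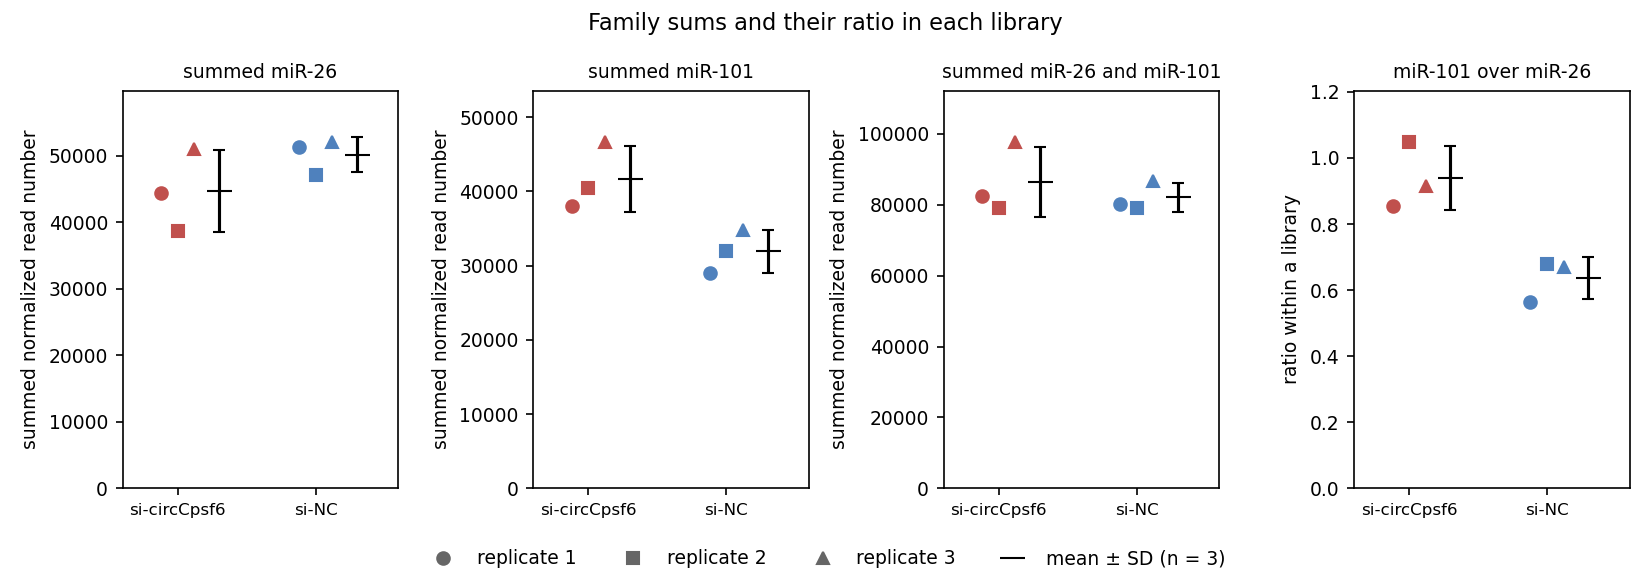
Summed normalized read number of the miR-26 entries, the miR-101 entries and both, and the number of miR-101 reads per miR-26 read, in each si-circCpsf6 (red) and si-NC (blue) library, with mean ± SD in black and all axes from 0. The miR-101 sum and the ratio are apart between the groups, with the ratio at 0.856 or more in si-circCpsf6 and 0.679 or less in si-NC, while the total of both families overlaps. These separations were not tested.

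The opposite arms of these hairpins, which are mostly discarded when the guide strand is loaded, were scarce. miR-26a-2-3p, made only by the hairpin in Ctdsp2, was listed at 61, 138 and 68 in si-circCpsf6, against 147, 153 and 54 in si-NC. It was low in replicate 3 of both groups and in si-circCpsf6 replicate 1 (log2 change -0.36, SE 0.60, limma adjusted p = 0.962, and -0.84 without si-NC replicate 3). miR-26b-3p was listed at 22, 41 and 54 in si-circCpsf6, against 49, 44 and 69 in si-NC, with overlapping groups (log2 change -0.52, SE 0.62, limma adjusted p = 0.924). miR-101b-5p was listed above 0 in 2 libraries, at 7 in si-circCpsf6 replicate 2 and 9 in si-NC replicate 1. miR-101a-5p was listed above 0 in 1 library, at 6 in si-circCpsf6 replicate 2, and another entry had the same values. miR-101c was listed at 36, 26 and 48 in si-circCpsf6, against 28, 36 and 27 in si-NC (log2 change 0.23, SE 0.63, limma adjusted p = 0.992).

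Neither miR-26a nor miR-26b passed a test of a shift between the listed values of its arms. There were 519, 203 and 494 miR-26a-5p reads per miR-26a-2-3p read in si-circCpsf6, against 264, 227 and 572 in si-NC. This ratio counts the 5p arm of both miR-26a hairpins, so it cannot test a shift in a single hairpin. For miR-26b the 5p arm had 573, 254 and 320 reads per 3p read in si-circCpsf6, against 251, 277 and 304 in si-NC. The fit took 172 hairpin names, with copies of a hairpin under a single name and each arm as its most abundant entry. In limma on their log2 5p to 3p ratio, 0 (0.0%) had an adjusted p under 0.05 and 4 (2.33%) an unadjusted p under 0.05. The ratio of miR-26a differed by 0.20 log2 units (SE 0.62, limma adjusted p = 0.998) and that of miR-26b by 0.37 (SE 0.48, limma adjusted p = 0.998), beside a median of -0.020 over all 172 names. The miR-101 hairpins were not in that fit, because their 5p arms had means under 10.

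The miRNAs whose pattern over the 6 libraries was closest to a leading member were named by the mean absolute difference of log2 values, each centred on its own mean, among 345 other mouse-named entries with a mean of 100 or more. For miR-26a-5p they were a variant of miR-345-3p, let-7c-5p and miR-25-3p, with differences of 0.059, 0.062 and 0.093 log2 units, beside a median of 0.39 over the candidates. For miR-26b-5p they were miR-374c-5p (0.070), miR-298-3p (0.085) and miR-880-3p (0.10), all high in replicate 3 of both groups. For miR-101b-3p they were miR-362-3p (0.10), miR-30c-5p (0.11) and miR-107-3p (0.11). miR-362-3p was listed at 1506, 1543 and 1770 in si-circCpsf6, against 873, 1230 and 1262 in si-NC. miR-107-3p was listed at 4168, 3646 and 4355 in si-circCpsf6, against 3046, 3131 and 2742 in si-NC. The groups did not overlap for either, while those of miR-30c-5p did. Being picked for likeness to miR-101b-3p over the same libraries, these entries partly repeat its separation by that choice and add no support to it. Over all tested entries, groups lay apart in this direction for 6.77%. For miR-101a-3p they were miR-871-5p (0.15), miR-181c-5p (0.17) and miR-342-3p (0.18). No member was among the 3 nearest of another. miR-101a-3p and miR-101b-3p differed by 0.23 log2 units, which put miR-101b-3p at place 21 in closeness to miR-101a-3p and miR-101a-3p at place 38 in closeness to miR-101b-3p. miR-26a-5p and miR-26b-5p differed by 0.32, which put miR-26a-5p at place 97 for miR-26b-5p and miR-26b-5p at place 122 for miR-26a-5p. miR-26b-5p was at place 39 for miR-101a-3p.

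Other miRNAs known to repress Ezh2, from human cancer cells or from mouse muscle and neural cells, were taken as a list of 10: let-7a, let-7b, let-7c, miR-98, miR-25, miR-30d, miR-124, miR-137, miR-138 and miR-214, each as its most abundant entry. Of these, 5 had positive and 5 negative log2 changes, with a median of 0.039, beside 0.086 over all tested entries, and 0 had an adjusted p under 0.05 by limma. The median covers larger changes in both directions. Unadjusted p by limma was under 0.05 for let-7a-5p (log2 change -1.115), let-7b-5p (-1.114), miR-98-5p (-1.501), miR-138-5p (0.786) and miR-214-3p (1.427). Over all tested entries 6.22% were under 0.05 without adjustment. The groups did not overlap for 3 lower members, let-7a-5p, let-7b-5p and miR-98-5p, which share the let-7 seed with let-7c-5p, and for 1 higher member, miR-214-3p. Groups lay apart in the lower direction for 4.91% of all tested entries. The 4 most abundant members had overlapping groups. miR-30d-5p was listed at 60079, 86786 and 48167 in si-circCpsf6, against 72475, 78509 and 30139 in si-NC. let-7c-5p was listed at 36203, 35816 and 39830 in si-circCpsf6, against 44183, 41163 and 39676 in si-NC. These values place let-7c-5p at about the level of miR-26a-5p, its near neighbour in pattern. miR-25-3p was listed at 35218, 35471 and 32213 in si-circCpsf6, against 42659, 36558 and 32068 in si-NC. miR-137-3p, a miRNA of neural progenitors, was listed at 8660, 6868 and 12964 in si-circCpsf6, against 5588, 4933 and 18757 in si-NC, with replicate 3 high in both groups.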

How the data were processed

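Small RNA libraries from 6 N2A samples, grouped by their titles, were analysed. Per the labels' protocols, RNA was taken with Trizol and made into libraries with the TruSeq small RNA kit. The submitters' processing notes name the build mm9. No aligner, counter, normalization or miRNA release is given in the sources used here. Measured values are the authors' normalized read numbers, treated as a score because they are rounded and not raw counts. The authors' deposited p-value and log2 fold change of the group means were used only where credited. The test for counts was therefore replaced by that for normalized values. Of 1080 entries, rows with identical values were merged where above 0 in at least 3 libraries or of the same name apart from the suffix (1046 left). The 916 with a mean of 1 or more were tested by limma 3.58.1 (trended variance, R 4.3.3) on log2(value + 1), which can understate changes of low entries, with Benjamini-Hochberg adjustment at 0.05. Arm ratios used hairpin names, copies of a hairpin under a single name, with the most abundant entry of both arms at a mean of 10 or more. Both fits were checked on simulated data with changes far larger than those of the members, so the check gives no power for changes of their size.

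The members, lists and tests were chosen with earlier results of these data known. All 9 members are reported, and those with a mean of 10 or more are given library by library. The nearest 3 patterns and up to 4 members of the Ezh2 list were named by rule. Alternatives were other pseudocounts (0.1 and 5), filters and scalings, single libraries left out, a replicate block, mouse-named entries alone, copies kept apart, array weights and a robust variance. Sequences are from RefSeq and GENCODE tables of GRCm38. Python 3.11.15, numpy 2.4.6, pandas 2.3.3, scipy 1.17.1 and matplotlib 3.10.9 were used.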

Additional observations from a re-analysis of the deposited data

How the results depend on the processing

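No member had an adjusted p under 0.05 in any of the alternatives run. Unadjusted p by limma fell under 0.05 for miR-101b-3p without si-NC replicate 3 (0.0339). With array weights it did so for miR-101b-3p (0.0402), miR-101a-3p (0.0439) and miR-26a-2-3p (0.0358). The share of all entries under 0.05 in those runs was not counted. Directions held in all alternatives for miR-26a-5p (log2 change -0.24 to -0.078), miR-101b-3p (0.30 to 0.44), miR-101a-3p (0.14 to 0.59), miR-26a-2-3p, miR-26b-3p and miR-101c. With 1 library left out, miR-26b-5p ran from -0.35 to 0.10, miR-101b-5p from -1.11 to 1.00, and the arm ratio of miR-26a from -0.057 to 0.63, so these turned sign, and array weights gave 0.035 for miR-26b-5p. miR-101a-5p ran from 0 to 1.40. Both scarce miR-101 5p arms drop out under a minimum mean of 10. The count of entries called was 0 as reported, 0 to 4 with 1 library left out, the 4 being let-7f-5p, let-7g-5p, let-7i-5p and PC-3p-14533_73 without si-NC replicate 3, and 31 with array weights, which gave that library a weight of 0.146. The count of arm ratios called was 0, or 0 to 1 with 1 library left out: miR-880 without si-NC replicate 3 and miR-677 without si-circCpsf6 replicate 2. The cause was not tested. The summed miR-26 log2 ratio ran from -0.27 to -0.073 and that of miR-101 from 0.30 to 0.45 with 1 library left out.

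Deviations from the group means correlated between same-numbered libraries at 0.047, 0.479 and 0.40 for replicates 1, 2 and 3. The values of replicates 2 and 3 were the highest of any pair across the groups. That of replicate 1 was lower, and si-NC replicate 1 correlated better with si-circCpsf6 replicate 2 (0.184). The sources used here do not say whether the numbers pair the samples, and the main fit did not pair them. With a replicate block, 0 entries and 0 arm ratios were called, and miR-101b-3p and miR-101a-3p kept log2 changes of 0.39 and 0.38. By limma their adjusted p was 0.442 for both, and their unadjusted p was 0.0521 and 0.0643. The read depth is unknown, so the precision of members near 0, such as miR-101a-5p, cannot be given. Hairpins without a 5p or 3p partner have no arm ratio, and the alternatives of a mean of 10 or more and of mouse-named entries alone leave the arm ratios as they are.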

Other observations

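Beside the mouse-named members, 2 entries were named after miR-26-5p of the opossum. One, read as 3 bases longer at its right end, was listed at 99, 88 and 39 in si-circCpsf6, against 135, 97 and 35 in si-NC, and was thus lowest in replicate 3 of both groups, where miR-26b-5p was highest. The other, read as carrying a single substitution, was listed at 13, 6 and 6 in si-circCpsf6, against 5, 4 and 0 in si-NC. How reads were divided between these entries and miR-26a-5p is not given in the sources used here. Both together are small beside miR-26a-5p, which was at 28068 or more in every library.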
